A study of Homo sapiens with 19 samples.

Results

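Noradrenaline is made in a short chain of reactions, stored in vesicles, taken back up after release and then broken down, and 8 genes for these steps were followed through the data: TH, DDC, DBH, GCH1, SLC18A1, SLC18A2, SLC6A2 and MAOA. They were chosen by name, as a pathway, and found by Ensembl gene ID among the 19942 rows of the expression and eCLIP tables and as 59 of the 256980 transcripts of the rRNA-depleted table. TH converts tyrosine to L-DOPA, the rate-limiting step, and needs the cofactor tetrahydrobiopterin, whose synthesis starts with GCH1. DDC turns L-DOPA into dopamine and DBH, inside the vesicle, turns dopamine into noradrenaline. SLC18A1 and SLC18A2 are the vesicular monoamine transporters, the former typical of chromaffin cells and the latter of monoaminergic neurons. SLC6A2 carries noradrenaline back across the plasma membrane and MAOA, on the outer mitochondrial membrane, deaminates it. This pathway is what sympathetic neurons and the neuroblastomas that arise from their precursors are known for.

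All libraries came from SH-SY5Y, an established human neuroblastoma line, so that each group below is a culture of 1 line. G3BP1 and G3BP2 are RNA-binding proteins at the core of stress granules (SGs), cytoplasmic bodies that form when translation initiation is blocked, here by sodium arsenite (AS). Poly-A RNA-seq was made from cells given siRNA against G3BP1 (siG3BP1), against G3BP2 (siG3BP2) or a control siRNA (siCtrl), and from AS-treated cells as lysate (Total) and as SG cores purified from that lysate with an anti-G3BP1 antibody (SG). rRNA-depleted RNA-seq was made from untreated cells and from cells given 500 µM AS for 1 h, and G3BP1 and G3BP2 eCLIP from untreated and AS-treated cells with 2 replicates per group. The labels of all samples other than the 2 rRNA-depleted ones, untreated eCLIP and siRNA samples included, carry 1 common treatment line of 50 mM AS for 1 h, and the groups are taken here from the sample titles. The methods of the paper give 500 µM for 1 h as the AS exposure and name no other dose. The RNA-seq groups have 1 library each, so their differences have no replicate check and carry no p-value.

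The siRNA target was lower in each knockdown library, with G3BP1 at 18.7 TPM in siCtrl and 5.996 in siG3BP1, and G3BP2 at 38.1 TPM in siCtrl and 11.4 in siG3BP2. TPM values are corrected for transcript length and library size, so that levels can be compared between genes. The cells carried markers of the noradrenergic lineage: 8 of 9 such genes reached 1 TPM, among them the transcription factors HAND2 (874 TPM in siCtrl), PHOX2A (719), GATA2 (653) and GATA3 (373), while INSM1 was at or near 0. Of 12 genes for other transmitters 2 reached 1 TPM, FEV (337 TPM in siCtrl) and the vesicular acetylcholine transporter SLC18A3 (37.5). Of 8 mesenchymal genes 6 reached 1 TPM outside SG, with VIM at 1514 TPM in siCtrl and PRRX1 at or near 0. YAP1 did so in SG alone (7.76 TPM, and 0.137 to 0.414 in the others), and among 4 Schwann cell genes SOX10 was at or near 0 in all 5 libraries.

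Against the lineage markers, the pathway was uneven, with 6 of the 8 genes above 10 TPM in siCtrl. The other 2, TH and SLC18A2, were under 1 TPM in every TPM library. TH (chromosome 11, 2163929 to 2171815, minus strand, GRCh38) was read at 0.304 TPM in siCtrl, 0.079 in siG3BP1, 0.389 in siG3BP2 and 0.113 in Total, and was listed at 0 in SG. Among the rRNA-depleted values, 4 of its 11 transcripts had a value above 0, and the most-read of them, TH-202, rested on 1 read in untreated and 1 read in AS-treated cells. The gene for the rate-limiting enzyme was therefore at the edge of detection in all 7 RNA-seq libraries. The vesicular transporter SLC18A2 (chromosome 10, 117241093 to 117279430, plus strand) was read at 0.291 TPM in siCtrl, 0.171 in siG3BP1, 0.296 in siG3BP2, 0.053 in Total and 0.659 in SG.

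DBH (chromosome 9, 133636363 to 133659329, plus strand) was the most abundant of the 8 in all 5 TPM libraries. It stood at 872 TPM in siCtrl, 905 in siG3BP1, 1098 in siG3BP2, 743 in Total and 580 in SG, and its rank among all genes in siCtrl was 101. DDC (chromosome 7, 50458436 to 50565405, minus strand) was second in the siRNA and Total libraries, while in SG it stood under SLC6A2. It was at 102 TPM in siCtrl, 79.0 in siG3BP1, 95.2 in siG3BP2, 73.5 in Total and 51.9 in SG. Both enzymes were thus lowest in SG. SLC6A2 (chromosome 16, 55655988 to 55707645, plus strand) was at 85.7 TPM in siCtrl, 64.6 in siG3BP1, 64.0 in siG3BP2, 18.7 in Total and 113 in SG. The other vesicular transporter, SLC18A1 (chromosome 8, 20144855 to 20183206, minus strand), was at 20.8, 13.9 and 16.2 TPM in siCtrl, siG3BP1 and siG3BP2, and at 6.62 and 13.9 TPM in Total and SG. SLC6A2 was lowest in Total and highest in SG, while SLC18A1 was lowest in Total and highest in siCtrl.

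GCH1 (chromosome 14, 54842008 to 54902826, minus strand) stood at 12.3 TPM in siCtrl, 9.80 in siG3BP1, 14.7 in siG3BP2, 6.53 in Total and 30.3 in SG. MAOA (chromosome X, 43654907 to 43746817, plus strand) stood at 15.1 TPM in siCtrl, 15.1 in siG3BP1, 11.8 in siG3BP2, 13.8 in Total and 45.3 in SG. Both were highest in SG. In siCtrl the order of levels was DBH, DDC, SLC6A2, SLC18A1, MAOA, GCH1, TH and SLC18A2, and with 1 library per group it cannot be said which neighbours in this order differ beyond the spread between cultures. Between siCtrl and the AS-treated lysate, which differ in treatment, siRNA and lysis, the ratio of Total to siCtrl TPM ranged over the 6 expressed genes from 0.219 for SLC6A2 and 0.318 for SLC18A1 to 0.852 for DBH and 0.916 for MAOA. The median of this ratio over all genes was not taken, so it cannot be said which of these values is typical. In such bulk libraries fewer expressing cells and less RNA per cell cannot be told apart.

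**Figure D1:**
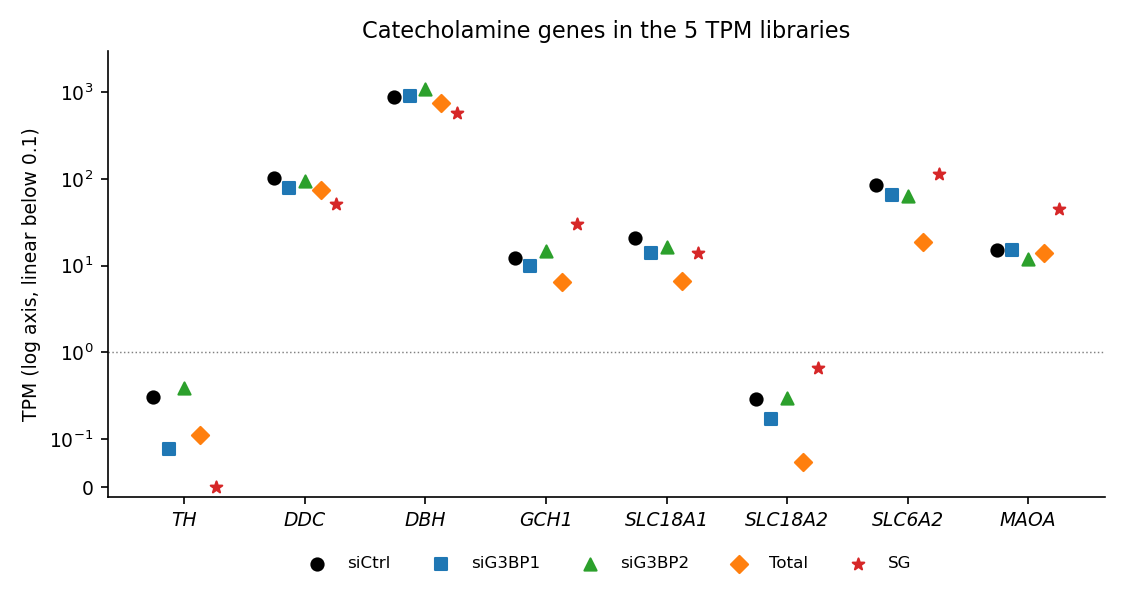
TPM (log axis, linear below 0.1) of the 8 catecholamine genes in the siCtrl, siG3BP1, siG3BP2, Total and SG libraries, 1 point per library. TH and SLC18A2 lie below the dotted line at 1 TPM in every library, DBH lies above 500 TPM in every library, and the SG point is the highest of the 5 for GCH1, SLC6A2 and MAOA.

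Depletion of G3BP1 or G3BP2 asks whether these proteins set the level of the mRNAs they touch. A gene was counted as past the limit when its TPM + 1 differed 2-fold or more with over 1 TPM in the higher library. TH and SLC18A2 did not reach 1 TPM in any of these libraries and could not be counted. In siG3BP1 0 of the other 6 genes were higher and 0 lower, beside 1.12% higher and 1.98% lower among 12280 genes that reached 1 TPM in either library. In siG3BP2 the counts were also 0 and 0, beside 1.23% higher and 2.89% lower among 12229 genes. At these rates, no call among so few genes is no result about them. The differences that were seen were small and were not of 1 sign: on the log2(TPM + 1) scale they ran from -0.55 for SLC18A1 to 0.05 for DBH in siG3BP1 and from -0.42 for SLC6A2 to 0.33 for DBH in siG3BP2. The median over the 6 genes was -0.33 in siG3BP1 and -0.21 in siG3BP2, and over all genes tested -0.08 and -0.12. SLC18A1, SLC6A2 and DDC were lower than in siCtrl in both knockdown libraries, which share that control, by 0.55, 0.40 and 0.36 (siG3BP1) and by 0.34, 0.42 and 0.09 (siG3BP2) on the log2 scale. With the knockdown library set to the same median as siCtrl, the siG3BP2 difference of DDC was 0.03 and so of the other sign. GCH1 lay on either side of the control, with -0.30 in siG3BP1 and 0.25 in siG3BP2.

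Among the genes around the pathway, those that reached 1 TPM in the siRNA libraries and could be counted were 6 of 7 for the tetrahydrobiopterin cofactor, 5 of 5 for amino acid, copper and electron supply, 5 of 7 for catecholamine breakdown, 2 of 6 for adrenaline synthesis and other amine uptake, 4 of 14 catecholamine receptors and 8 of 9 lineage markers. Of these, 0 passed 2-fold in either knockdown. The nearest was CYB561, which brings electrons into the vesicle for DBH, at 219 TPM in siCtrl, 117 in siG3BP1 and 126 in siG3BP2, a log2 difference of -0.90 and -0.79. Of the mesenchymal list 1 gene passed, NOTCH2, a receptor of the Notch pathway, at 11.6 TPM in siCtrl, 2.39 in siG3BP1 and 1.87 in siG3BP2.

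The comparison of SG cores with lysate asks which mRNAs the cores hold. Of the 6 genes that reached 1 TPM in either fraction 3 were higher in SG by 2-fold or more, GCH1, SLC6A2 and MAOA, and 0 were lower, beside 62.9% higher and 9.45% lower among 13560 genes tested. The background is thus so high that being called higher marks no gene out, since the median ratio of SG to Total TPM was 2.78 over 10958 genes above 1 TPM in both. SLC6A2 was 6.005 times higher in SG (18.7 TPM in Total, 113 in SG), GCH1 4.64 times (6.53 and 30.3) and MAOA 3.28 times (13.8 and 45.3), all above that median. SLC18A1 was 2.098 times higher (6.62 and 13.9), below the median, and on the scale of TPM + 1 it just missed the 2-fold limit. DBH and DDC were lower in SG than in Total, at 0.781 times (743 and 580 TPM) and 0.706 times (73.5 and 51.9).

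The 2 enzymes that follow TH in the chain therefore lay on the other side of equality from most genes, and the reuptake transporter above most. With SG divided by its median ratio, DDC and DBH passed 2-fold lower with log2 differences of -1.92 and -1.83, SLC18A1 was at -0.34, and SLC6A2 alone of the 8 passed 2-fold higher, beside 4505 genes higher and 3271 lower in all. On that scale GCH1 (0.66) and MAOA (0.23) did not pass. SLC18A2 (0.053 and 0.659 TPM) and TH (0.113 and 0) stayed below 1 TPM in both fractions, where no call was made.

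**Figure D2:**
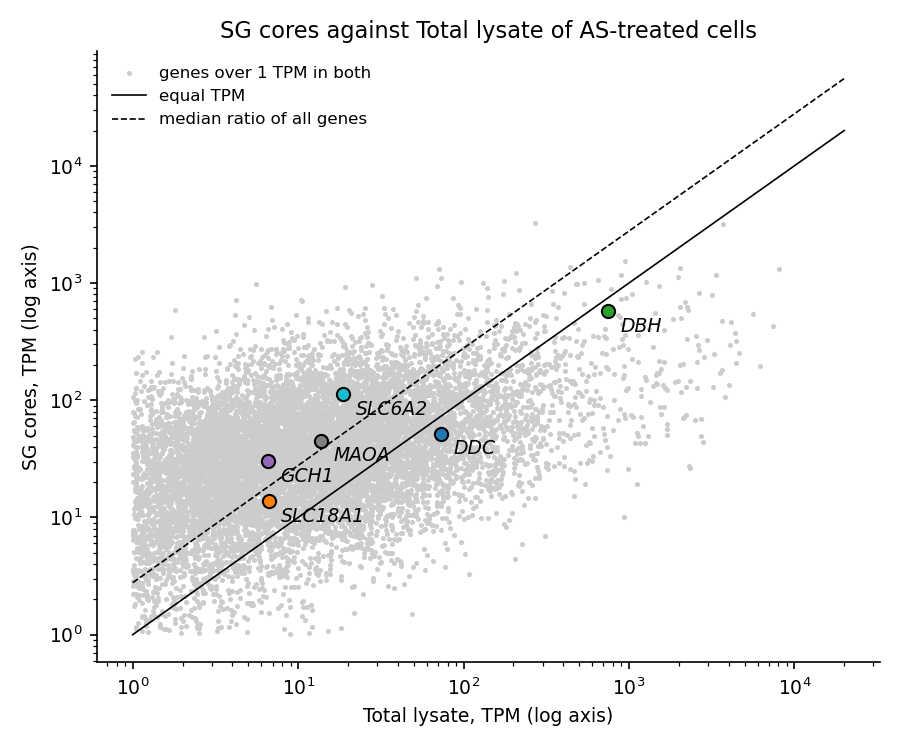
TPM in SG cores against TPM in Total lysate (log axes), with the 6 expressed catecholamine genes over the genes above 1 TPM in both libraries (grey). DBH and DDC lie under the line of equal TPM, SLC18A1 between that line and the dashed median ratio of 2.78, and GCH1, SLC6A2 and MAOA above both.

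Because SG cores favoured long transcripts in these libraries, the log2 fold was also set beside the line fitted on the length of the longest transcript over 10949 genes (r = 0.62 across genes, which are not independent replicates). DDC, with a longest transcript of 2012 nt, lay 0.81 below the line, DBH (2745 nt) 1.23 below and MAOA (8408 nt) 1.253 below, as differences in log2 fold of -0.81, -1.23 and -1.253. GCH1 (2916 nt) lay 1.07 above it, and SLC18A1 (2956 nt) and SLC6A2 (7055 nt) lay near it, with differences of -0.04 and -0.06. All of these differences were smaller than 1.47, the SD of all genes about the line. MAOA, counted as higher in SG, was thus among the genes with less SG signal than the line gives for its longest transcript, and GCH1 among those with more. The most-read MAOA transcript of the rRNA-depleted libraries, MAOA-201, was much shorter, at 3931 nt. Distances to the line at other transcript lengths were not taken.

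Over all 13560 genes tested 62.9% were higher in SG and 9.45% lower, and the counts below stand beside those shares. Around the pathway, 4 of the 5 genes for amino acid, copper and electron supply were higher in SG and 0 lower. These were the copper pump ATP7A (1.02 TPM in Total, 54.8 in SG), pyridoxal kinase PDXK (8.12 and 79.7), which makes the cofactor of DDC, the amino acid transporter SLC7A5 (25.9 and 193) and CYB561 (68.0 and 181). Of the 6 cofactor genes tested 1 was higher, PCBD2 (3.803 and 15.6 TPM), and 1 lower, PCBD1 (159 and 39.98). Of the 5 breakdown genes tested AKR1B1, an aldose reductase, was lower (304 and 90.8 TPM) and 0 were higher. The plasma membrane monoamine transporter SLC29A4 was higher (79.0 and 187 TPM). Of the 8 lineage markers tested 7 were higher and 0 lower, including GATA2 (175 and 1043 TPM) and GATA3 (206 and 1217), and FEV was lower (216 and 49.2). Of the mesenchymal genes NOTCH2 (1.13 and 260 TPM), FN1 (26.0 and 197) and COL1A1 (9.42 and 40.97) were higher and VIM (2178 and 692) lower. Over the genes of each list that reached 1 TPM in either fraction, the median log2 difference was 2.85 for the supply genes, 2.28 for the lineage markers, 1.31 for the 6 catecholamine genes, 0.09 for the breakdown genes and -0.38 for the cofactor genes, beside 1.51 over all genes tested.

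The profile over the 5 TPM libraries was most like that of the following genes, by Euclidean distance of centred log2(TPM + 1) among genes of similar mean level. DDC lay nearest to BCKDK (distance 0.163), ISYNA1 (0.196) and PCBP4 (0.197), DBH to ARHGDIA (0.180), NT5DC2 (0.262) and H2AX (0.383), and SLC6A2 to ELAVL3 (0.257), TMEM229A (0.318) and CLPTM1 (0.349). SLC18A1 lay nearest to LMBR1L (0.186), ZDHHC1 (0.213) and UBXN11 (0.278). GCH1 lay nearest to PTGR2 (0.156), PCGF3 (0.237) and NAPG (0.238), and MAOA to EMP2 (0.092), ESS2 (0.096) and BMAL1 (0.113).

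The rRNA-depleted libraries address the effect of AS on RNA levels. Their values per transcript are RPKM, reads divided by transcript length and library size, although their header names TPM, since value times length gave whole reads within 0.02 reads for 100% of 116354 values from untreated and 99.9992% of 118225 values from AS-treated cells. These steps correspond to 13291958 and 11281587 reads. Of the member transcripts 0 passed 2-fold higher and 0 lower, beside 1.51% and 0.47% of 100705 transcripts tested. The median ratio of AS-treated to untreated cells over all transcripts above 1 RPKM in both was 1.19, so that a ratio near that value is the typical one here. The isoforms of a gene share reads, and the intervals below are exact 95% binomial (Clopper-Pearson) limits that cover counting error only.

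DBH-202, the longer of the 2 DBH transcripts, had 5874 reads in untreated and 5532 in AS-treated cells, 161 and 179 RPKM, a ratio of 1.11 (1.07 to 1.15). SLC6A2-208 had 2451 and 2182 reads, 31.1 and 32.6 RPKM, a ratio of 1.05 (0.990 to 1.11). These 2 best-read transcripts had narrow intervals, and relative to the median transcript they stood at 0.933 (0.899 to 0.968) and 0.882 (0.832 to 0.934). DDC-201 had 530 and 580 reads, 20.6 and 26.5 RPKM, a ratio of 1.29 (1.14 to 1.45), and 13 of 13 DDC transcripts above 1 RPKM were higher in AS-treated cells, by 1.12 to 1.35 times. Relative to the median transcript DDC-201 stood at 1.08 (0.962 to 1.22), an interval that holds equality.

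GCH1-204 had 146 and 173 reads, 3.77 and 5.26 RPKM, a ratio of 1.40 (1.11 to 1.75), and the most-read SLC18A1 transcript had 252 and 226 reads, 6.41 and 6.78 RPKM, a ratio of 1.06 (0.879 to 1.27). MAOA-201 rested on 74 and 83 reads, 1.42 and 1.87 RPKM, with a ratio of 1.32 (0.954 to 1.83). For these 3 the interval relative to the median transcript held equality. The largest ratio among the 8 genes' most-read transcripts was that of SLC18A2-201, with 69 and 100 reads, 1.26 and 2.15 RPKM and a ratio of 1.71 (1.24 to 2.36), or 1.44 (1.05 to 1.98) relative to the median. Of the SLC18A2 exon bases 52.3% are also exon of PDZD8 on the opposite strand, and whether reads were counted by strand is not given in the sources used here, so its reads and those of PDZD8 cannot be told apart. The exons of DDC, DBH and SLC18A2 also overlap antisense RNAs, by 3.70%, 4.30% and 2.55% of their bases.

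**Figure D3:**
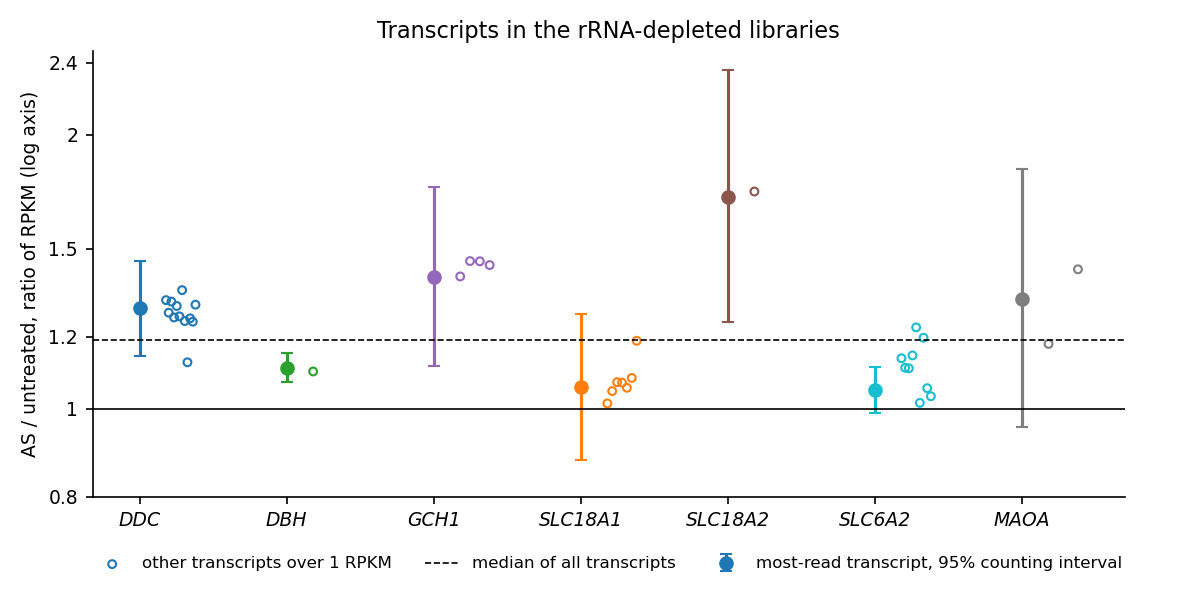
Ratio of RPKM in AS-treated to untreated cells (log axis) for the most-read transcript of each gene with its 95% counting interval (filled points) and for its other transcripts above 1 RPKM (open points). TH is left out, with 1 read in each library. All points lie at or above 1, and the intervals of DBH and SLC6A2 lie below the dashed median of all transcripts, 1.19. The open points of SLC6A2 reach 1.23.

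In eCLIP, RNA is crosslinked by UV light to the protein it touches, precipitated with that protein and sequenced. The deposited value per gene and library is log10 of a whole number plus 1, under a header that calls it peaks. The paper states that called peaks were normalized with the size-matched input. What the number counts, and whether that input was subtracted from it, is not given in the sources used here. The numbers sum to between 4268911 and 26179736 per library, with replicate 1 the larger in each of the 4 groups, and were therefore scaled to the mean library total before libraries were compared. The scaled values are given below as log10(number + 1).

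The order of the genes in eCLIP was another than in RNA. DDC had the highest scaled value of the 8, 3.48 ± 0.044 (SD, n = 2) with G3BP1 in untreated cells, followed by SLC6A2 at 3.11 ± 0.019, SLC18A1 at 2.92 ± 0.0089, GCH1 at 2.80 ± 0.090 and MAOA at 2.54 ± 0.039. SLC18A2 followed at 2.26 ± 0.018 and TH at 2.05 ± 0.10, and DBH was last at 1.49 ± 0.27. These values are not corrected for length. Per kb of genomic span, the 2 scaled numbers with G3BP1 in untreated cells were 30.6 and 26.5 for DDC, 24.1 and 25.7 for SLC6A2, 21.9 and 21.3 for SLC18A1 and 16.9 and 12.0 for TH. They were 8.93 and 12.0 for GCH1, 4.90 and 4.62 for SLC18A2, 3.56 and 4.03 for MAOA, and 2.04 and 0.823 for DBH. In this order DDC overlapped no other gene, TH and GCH1 touched at their nearer values, and the other neighbours did not overlap.

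DBH, which had the most abundant mRNA of the 8, was lowest per kb in each of the 8 libraries, at 0 to 2.04. TH, whose mRNA was at the edge of detection, stood at 5.72 to 24.5 per kb, above DBH in every library. DBH had deposited log10 values of 1.85 and 0.95 with G3BP1 and 1.76 and 1.40 with G3BP2 in untreated cells, numbers of 70, 8, 57 and 24. In AS-treated cells the values were 1.36 and 0.85 with G3BP1 and 1.36 and 0.00 with G3BP2, so that 1 of the 8 libraries listed DBH at 0. TH had values of 2.30 and 1.61 with G3BP1 and 2.5 and 1.61 with G3BP2 in untreated cells, and 2.37 and 1.11 with G3BP1 and 2.34 and 1.57 with G3BP2 in AS-treated cells. In every group the second, smaller library gave the lower value, and TH stayed above DBH within each library.

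Long genes had higher eCLIP values in every library (r = 0.82 to 0.86 between log10 value and log10 genomic span across genes). The distance to the line fitted on span was therefore taken per library, where all genes spread about the line with an SD of 0.40 to 0.43. DBH, with a span of 23.0 kb, lay below the line in all 7 libraries with a value above 0, by -0.49 to -1.0 with a median of -0.81, and 90.6% to 98.0% of genes had a larger difference in those libraries. MAOA (91.9 kb) lay below it in 8 of 8 libraries with a median of -0.34, and SLC18A2 (38.3 kb) in 8 of 8 with a median of -0.12. SLC6A2 (51.7 kb) lay above the line in 8 of 8 with a median of 0.54, SLC18A1 (38.4 kb) in 8 of 8 with 0.44 and DDC (107 kb) in 8 of 8 with 0.44. GCH1 (60.8 kb) lay above in 7 of 8 with a median of 0.17. TH, the shortest gene at 7.89 kb, lay above in 7 of 8 with a median of 0.38 and a range of -0.08 to 0.67, and its replicates lay far apart within groups. When the length of the longest transcript replaced the span, DBH stayed below the line in all 7 libraries (median -0.86) and TH was above it in 4 of 8 (median 0.08). On that line DDC had the median 1.33, GCH1 0.59 and SLC6A2 0.34, each above it in 8 of 8 libraries, so that the order of these genes turned with the choice of length. The longest transcript followed the eCLIP values less closely than the span did, with r = 0.51 to 0.56 and an SD of 0.60 to 0.69 about its line.

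**Figure D4:**
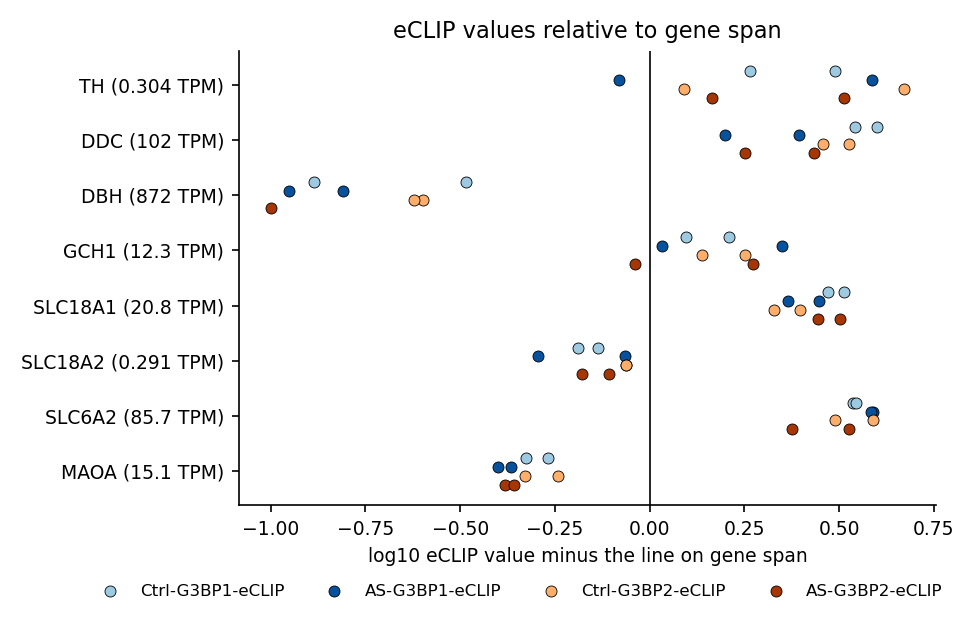
Difference of the deposited log10 eCLIP value from the line on gene span for each gene (rows, with siCtrl TPM) in each library, 1 point per library coloured by group. All 7 DBH points lie between -1.0 and -0.49, and all 8 points of DDC, SLC18A1 and SLC6A2 lie above 0. The library that listed DBH at 0 has no point.

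The palindrome CCAGCCTGG or CCAGGCTGG (DNA letters, each the reverse complement of the other) was searched because the study names it as a motif of both proteins. It was counted on GRCh38 in the span of each gene, and as it is its own pair on the opposite strand, both strands give 1 count. Of 19892 genes 87.4% held it at least once, with a median of 40.3 copies per 100 kb. The 8 genes ran from 14.1 copies per 100 kb in MAOA (13 copies) and 17.4 in DBH (4) to 44.3 in SLC18A2 (17) and 85.5 in GCH1 (52). TH had 38.0 (3 copies), DDC 33.7 (36), SLC18A1 26.1 (10) and SLC6A2 25.2 (13). The 2 genes farthest below the span line, DBH and MAOA, were also those with the fewest copies per 100 kb of the 8. This is a description of 8 genes. In the longest transcript 35.4% of genes held a copy, and among the 8 only TH did, with 1.

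The sites of TH and 1 of DBH are shown because DBH had the most abundant mRNA of the 8 and TH was under 1 TPM. In eCLIP, TH stood above DBH within each library. SLC18A2, also under 1 TPM, lay below the span line in 8 of 8 libraries. The sites are given 5′ to 3′ on the strand of the gene with the palindrome in capitals and 10 bases on either side. In TH 1 of the 3 lies in a coding exon and the others in introns, and in DBH all 4 lie in introns.
TH coding exon, chr11:2166690-2166718, minus strand: gacttcctggCCAGCCTGGccttccgcgt
TH intron, chr11:2171004-2171032, minus strand: actgtgtgggCCAGGCTGGataatcggga
TH intron, chr11:2171602-2171630, minus strand: ctgctactccCCAGCCTGGctggcagccc
DBH intron, chr9:133651861-133651889, plus strand: agggatggctCCAGGCTGGcttctttttc
A match of these letters is not a binding site, and positions of eCLIP reads within the genes were not analysed here.

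AS-treated and untreated cells were compared in eCLIP to see whether stress changes which RNAs the proteins touch. In limma fits over all 8 libraries with Benjamini-Hochberg adjustment, 0 of 19259 genes (0%) were called for G3BP1 or for G3BP2, and so 0 of the 8 catecholamine genes. At an unadjusted p under 0.05, 372 genes were higher and 404 lower for G3BP1, and 278 higher and 247 lower for G3BP2. Separately from that test, the 2 AS-treated libraries lay wholly above or below the 2 untreated ones for 4 of the 8 genes with G3BP1, where 27.2% of all genes did so, and for 5 of the 8 with G3BP2, where 30% did.

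DDC had the smallest unadjusted p of the 8 genes. Its scaled values with G3BP1 were 3.52 and 3.45 in untreated cells and 3.12 and 3.30 in AS-treated cells, and with G3BP2 they were 3.44 and 3.38 before and 3.17 and 3.35 after treatment. For both proteins the AS-treated libraries lay below the untreated ones. The change in limma was -0.272 (SE 0.079, 95% interval -0.460 to -0.084) on the log10 scale for G3BP1, with an unadjusted p = 0.011 and an adjusted p = 0.95 in limma, and -0.147 (SE 0.079, -0.335 to 0.041) for G3BP2, with an adjusted p = 1. Without AS-G3BP1 replicate 1 the G3BP1 change was -0.180 (SE 0.081, unadjusted p = 0.069), and without AS-G3BP1 replicate 2 it was -0.365. DDC mRNA stood 1.29 times higher in AS-treated cells in the rRNA-depleted libraries (DDC-201), or 1.08 times (0.962 to 1.22) relative to the median of all transcripts, without a replicate.

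DBH had scaled values of 1.56 and 1.57 with G3BP2 in untreated cells and 1.16 and 0 in AS-treated cells. The change of -0.981 (SE 0.369) had an unadjusted p = 0.033 and an adjusted p = 1 in limma, and it rests on the library that lists DBH at 0. With G3BP1 the DBH change was -0.194 (SE 0.369). MAOA lay lower in AS-treated cells without overlap for both proteins, by -0.083 (SE 0.069) with G3BP1 and -0.082 (SE 0.069) with G3BP2, and neither passed the limma test (adjusted p = 0.95 and 1). TH, GCH1 and SLC18A2 overlapped between treatments with G3BP1, at changes of -0.112 (SE 0.235), 0.042 (SE 0.130) and -0.010 (SE 0.092). The interval of TH, -0.669 to 0.445, was so wide that a change of several times in either direction was not detectable.

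SLC18A1 had AS differences of opposite sign with the 2 proteins. Its scaled values were 2.93 and 2.91 with G3BP1 in untreated cells and 2.86 and 2.82 in AS-treated cells, but 2.80 and 2.77 with G3BP2 in untreated cells and 2.85 and 2.95 in AS-treated cells. Groups did not overlap for either protein, with changes of -0.078 (SE 0.054) and 0.118 (SE 0.054). The difference between the 2 changes, the interaction, was 0.196 (SE 0.076, 95% interval 0.016 to 0.376) with an unadjusted p = 0.037 and an adjusted p = 1.00 in limma, and 0 of 19259 genes (0%) were called in that contrast. SLC6A2 had scaled values of 3.10 and 3.12 with G3BP1 in untreated cells and 3.15 and 3.17 in AS-treated cells, and of 3.14 and 3.07 with G3BP2 in untreated cells and 3.08 and 2.96 in AS-treated cells.

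Between the proteins, 0 genes (0%) were called in untreated cells and 0 (0%) in AS-treated cells by limma, and at an unadjusted p under 0.05 G3BP2 was higher for 80 genes and lower for 79 without AS, and higher for 143 and lower for 94 with AS. SLC18A1 was lower with G3BP2 than with G3BP1 in untreated cells by -0.137 (SE 0.054, unadjusted p = 0.038, adjusted p = 1 in limma), and by -0.02 on the values as deposited, without scaling. SLC6A2 was lower with G3BP2 in AS-treated cells by -0.142 (SE 0.053, unadjusted p = 0.032, adjusted p = 1 in limma), but on the values as deposited the difference was 0.015, of the other sign. For DDC the difference between the proteins was -0.077 (-0.265 to 0.111) without AS, or 0.04 on the values as deposited, and 0.048 (-0.140 to 0.236) with AS. These DDC intervals leave room for a difference of the size of its AS change with G3BP2 (-0.147). Whether they hold one of the size of its change with G3BP1 (-0.272) depended on the fit. With no filter on low values the DDC interval in untreated cells was -0.297 to 0.142, which holds it.

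**Figure D5:**
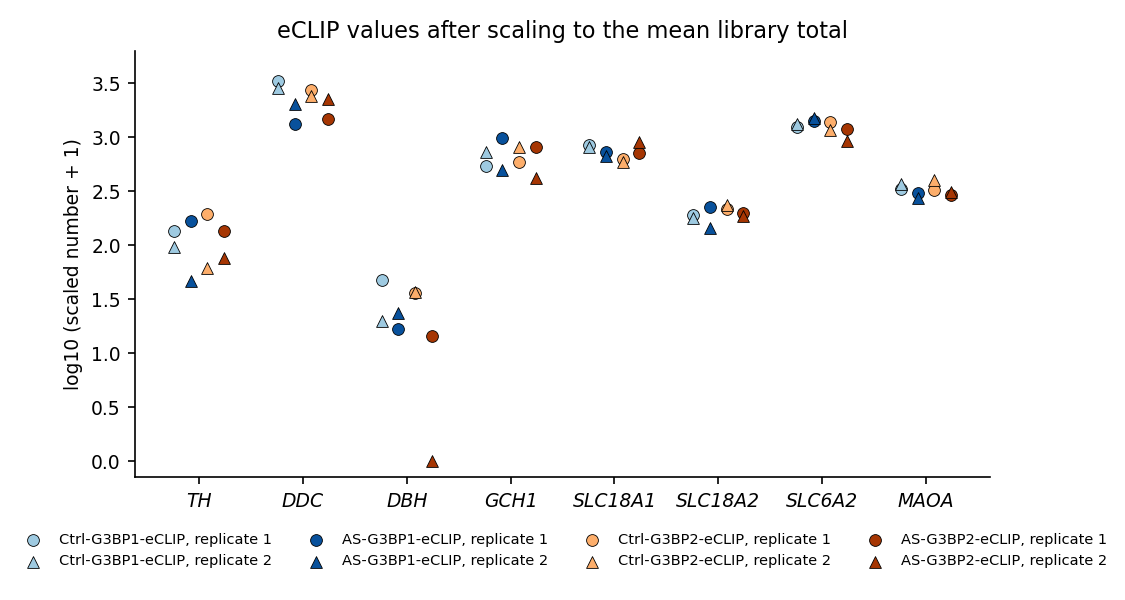
Scaled log10 eCLIP value of each gene in untreated (light) and AS-treated (dark) cells with G3BP1 (blue) and G3BP2 (orange), with circles for replicate 1 and triangles for replicate 2. DDC lies highest, with its AS-treated points below the untreated ones for both proteins, and DBH lowest, with 1 AS-treated G3BP2 library at 0.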

How the data were processed

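The authors aligned poly-A and rRNA-depleted reads with HISAT2 2.1.0 and quantified them with StringTie; they deposited TPM per protein-coding gene for the siCtrl, siG3BP1, siG3BP2, Total and SG libraries. Values per transcript of the rRNA-depleted libraries, deposited under a TPM header, were found to be RPKM. For eCLIP the authors deduplicated molecular identifiers with fastp, aligned with STAR and called peaks with CLIPper. They then normalized the peaks with the size-matched input (SMInput). The deposited values are log10 of a number plus 1, unscaled and rounded. SMInput libraries were not analysed here. No column was left without a sample.

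Genes were matched to GENCODE on GRCh38, of a later release than the authors', by ID (19910 of 19942 rows). Folds were taken on TPM + 1 or RPKM + 1, called past 2 or under 0.5 with over 1 in the higher library. eCLIP values were scaled to the mean library total and fitted with limma 3.58.1 (R 4.3.3) with an intensity trend over all 8 libraries, on genes above 0 in at least 2, after a test on simulated data. The labels do not say whether replicates were separate cultures, so p-values measure the spread between these samples. TPM gives no depth.

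The members and gene lists were chosen with earlier results of these data known. Genes named besides the 8 are, per list, at most 4 above 10 TPM in a library and past 2-fold in a TPM comparison, and the 3 nearest profiles of each member above 10 TPM in siCtrl. Some genes that meet this rule, and some motif sites, are left out of the text. CYB561 in the knockdowns, and HAND2, PHOX2A, INSM1, SLC18A3, PRRX1 and SOX10, were named after their values were seen. Other computations used scipy 1.17.1, pandas 2.3.3 and numpy 2.4.6 under Python 3.11.15, with plots from matplotlib 3.10.9. Alternatives changed the pseudocount, fold, minimum, scaling, filter, summing of transcripts, length measure, replicate block and libraries.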

Additional observations from a re-analysis of the deposited data

Results flagged for a closer look

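SLC18A1 was the 1 of the 8 genes whose AS-treated eCLIP libraries lay wholly below the untreated ones with G3BP1 and wholly above them with G3BP2. The changes were -0.078 and 0.118 on the log10 scale, each from 2 libraries against 2. Of all 19259 genes, 27.2% did not overlap in either direction with G3BP1 and 30% with G3BP2. The share of all genes with opposite directions for the 2 proteins was not taken, so this pattern does not mark SLC18A1 out. The test of the difference itself in limma gave 0.196 (SE 0.076) with an unadjusted p = 0.037 and an adjusted p = 1.00, so it did not pass the correction over 19259 genes.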

How the results depend on the processing

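With 1 library per RNA-seq group and 2 per eCLIP group, no small difference can be shown. Under the alternatives 0 catecholamine genes were called in either knockdown, in the rRNA-depleted libraries or in eCLIP. The calls of SG cores depended on scaling: with the median ratio set to 1, 1 catecholamine gene was higher and 2 lower, and 4505 genes were higher and 3271 lower in all. SLC18A1 passed as higher in SG with a pseudocount of 0.1 (log2 difference 1.06) or a fold of 1.5. Counts over all genes moved as follows. With a pseudocount of 0.1, 289 were higher and 425 lower in siG3BP1, 273 and 638 in siG3BP2, and 5947 and 1768 transcripts in the rRNA-depleted libraries. With a fold of 1.5 the counts were 455 and 765, 418 and 1186, and 10566 and 2003. In the rRNA-depleted libraries 726 transcripts were higher with the median ratio set to 1, and 625 genes were higher and 203 lower after summing per gene.

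In eCLIP, deviations of same-numbered replicates correlated with r between 0.060 and 0.416 over the 6 pairs of groups. The highest were those of G3BP1 with G3BP2 within a treatment, at 0.416 in untreated and 0.324 in AS-treated cells. Across treatments r was 0.060 to 0.147. The numbers were not taken to pair the samples in the main fit, and a pairing of the proteins within each treatment was not fitted. The replicate block on scaled values called 0 genes in all 5 contrasts. On values as deposited with the replicate block, limma called 1 gene higher and 1 lower for G3BP1 after AS, 2 higher for G3BP2 after AS and 1 higher for G3BP2 against G3BP1 in AS-treated cells. With no filter on low values it called 2 lower for G3BP1 after AS, 2 higher and 3 lower for G3BP2 after AS, and 1 higher for G3BP2 against G3BP1 in untreated and 1 in AS-treated cells. Leaving out each library in turn gave 0 to 6 genes higher and 0 to 198 lower for G3BP1 after AS, 0 to 177 higher and 0 to 1 lower for G3BP2 against G3BP1 in AS-treated cells, and 0 to 24 higher for the interaction. The upper ends came without AS-G3BP1 replicate 1, and 2 higher for G3BP1 after AS without Ctrl-G3BP1 replicate 1. The cause was not tested. Of 552 changes of the 8 genes under the eCLIP alternatives 502 kept their sign.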
